A study of Rattus norvegicus with 6 samples.

Results

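The antigen presentation genes examined in the rat jejunum were B2m, Tap1, Tap2 and Tapbp of the major histocompatibility complex (MHC) class I pathway, and RT1-Da, RT1-Db1, RT1-Ba, RT1-Bb, Cd74 and Ciita of the class II pathway. Their probes were found through the RefSeq accession that the array design gives each probe. All 10 genes had at least 1 probe, 17 probes together, among 13837 genes that could be named on the array. All 17 probes were bright enough to be tested, out of 31367 tested probes of 41012. Class I molecules are carried by nearly all nucleated cells and consist of a heavy chain and the light chain beta-2-microglobulin. They show peptides that were cut by the proteasome and pumped into the endoplasmic reticulum. Class II molecules are pairs of an alpha and a beta chain, show peptides from the lysosomal route, and are found on B cells, macrophages and dendritic cells and, under interferon gamma, also on gut epithelium.

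Jejunal RNA of male Sprague-Dawley rats, an outbred stock, aged 6 weeks and weighing 200 ± 20 g, was hybridised to 1-colour Agilent rat arrays. Rats of the S3d group were shaken at 0.1 g in an ambient temperature of 35°C on 3 days, for 2 h on each day. Rats of the control group were housed at 25°C. Each sample was RNA mixed from 3 rats, and each group had 3 arrays. The labels give 10 rats per group and do not say which rats went into which mixture. The study's methods give fewer rats, too few for 3 mixtures of separate rats, in which case the mixtures of a group would share animals. P-values therefore measure the spread between these mixtures, which may not be independent.

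The arrays of the groups differed before any gene was considered. On the control arrays the processed signal had a 75th percentile of 414 to 430.1, against 1456 to 1566 on the S3d arrays. No spot was saturated. Each group filled a slide of its own, so that slide and group cannot be told apart. Levels below are log2 processed signals minus the log2 of that percentile, so that 0 is the 75th percentile of an array. Pearson's r over the tested probes was 0.993 to 0.995 between control arrays and 0.984 to 0.994 between S3d arrays, the lowest values in the S3d group being those of S3d replicate 1 (0.985 and 0.984). Each column of the deposited normalized table matched a scanner file of the opposite group (Spearman's rho 0.99999 or more with the same replicate number there, and 0.941 to 0.948 with the array of its own label). Group labels were therefore opposite in these sources. No sample was reassigned, and every signed value below is S3d minus control as the scanner files are labelled. That direction is the reverse of the normalized table's and of the study's, and the array files alone do not tell which source has the right labels. The study reports that RT-PCR changes closely followed its arrays in its own direction, though fold sizes differed. That direction is not the one used here, and the RT-PCR was not analysed here.

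Promoters of the members are shown because both pathways are known for shared short elements. The interferon response element binds IRF factors, and the X and Y boxes of class II genes bind the complexes of RFX and NF-Y that recruit Ciita. Promoter windows (250 bases before to 50 after the gene start, RefSeq, assembly GRCr8) were found for 9 of 10 members, all but Ciita. Both strands were searched for GAAA followed by 2 bases of any kind and GAAA (interferon response element), CTGATTGG (Y box), GCAAC (core of the X box) and TGACGTCA (cyclic AMP response element). The stretches around the interferon response element are given for the class I members, with the match in capitals, 5′ to 3′ on the strand of the gene.
B2m (chr3:129549165-129549204, plus strand): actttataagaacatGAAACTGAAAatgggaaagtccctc
Tap1 (chr20:4668640-4668679, minus strand): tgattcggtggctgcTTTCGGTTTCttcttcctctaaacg
Tap2 (chr20:4652313-4652352, minus strand): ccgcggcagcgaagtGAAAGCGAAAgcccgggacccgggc
Tapbp (chr20:4967878-4967918, minus strand): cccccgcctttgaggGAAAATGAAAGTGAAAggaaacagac
All 4 class I members held this element, in Tap1 on the opposite strand and in Tapbp as a pair of matches that overlap, while 3.92% of 33469 promoters of the same length held it. None of the 5 class II members with a promoter in the table matched it in this window.

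The 4 class II chain genes are shown with the Y box CTGATTGG in capitals and, where found, the X box core GCAAC and TGACGTCA.
RT1-Da (chr20:4515303-4515382, plus strand): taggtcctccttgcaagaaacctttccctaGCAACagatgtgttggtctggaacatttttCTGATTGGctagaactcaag
RT1-Db1 (chr20:4560226-4560305, minus strand): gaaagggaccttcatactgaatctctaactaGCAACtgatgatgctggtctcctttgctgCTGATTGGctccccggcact
RT1-Ba (chr20:4576951-4577030, plus strand): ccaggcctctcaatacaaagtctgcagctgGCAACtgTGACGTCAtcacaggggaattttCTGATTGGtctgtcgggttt
RT1-Bb (chr20:4604163-4604242, minus strand): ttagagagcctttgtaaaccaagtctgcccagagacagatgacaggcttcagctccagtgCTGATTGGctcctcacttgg
All 4 chain genes held the Y box, which 3.5% of all promoters held. GCAAC was found upstream of it in RT1-Da, RT1-Db1 and RT1-Ba, and it also occurred in Cd74 and Tap2, but 35.1% of all promoters hold these few letters. TGACGTCA was found in RT1-Ba (1.83% of all promoters). A match describes these letters only. The 4 genes with the Y box had probes on both sides of 0, as given below.

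Of the 17 member probes, 6 were higher on the S3d arrays, 8 were lower and 3 were not called at an adjusted p under 0.05 (limma, Benjamini-Hochberg over all tested probes). The array as a whole was called at 73.9% of tested probes, 39.4% higher and 34.5% lower, so the members' share of 82.4% is read against a background in which most probes were called. With a fold change of at least 1.5 required as well, 12 member probes remained against 52.4% of all tested probes, 5 of them higher (29.2% of tested probes) and 7 lower (23.3%). The RT1-Ba probe and 1 RT1-Bb probe were well above background on the S3d arrays only and passed the filter through that group, so they had to differ. Of the 15 member probes well above background on all 6 arrays, 4 were higher, 8 lower and 3 not called (80.0% called, against 72.5% of 27052 such probes). Control and S3d arrays did not overlap for 16 of the 17 probes, against 78.9% of all tested probes. The median log2 fold change was -0.51 over the member probes and 0.08 over all tested probes. By pathway, the 7 class I probes (2 higher, 5 lower), 4 of them of B2m, had a median of -1.18. The 10 class II probes (4 higher, 3 lower, 3 not called) had a median of 0.27. This class II count and median include the RT1-Ba and RT1-Bb probes that had to differ. By gene, taking the brightest probe, 4 members were higher (RT1-Ba among them), 5 lower and 1 not called, with a median of -0.10.

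**Figure D1:**
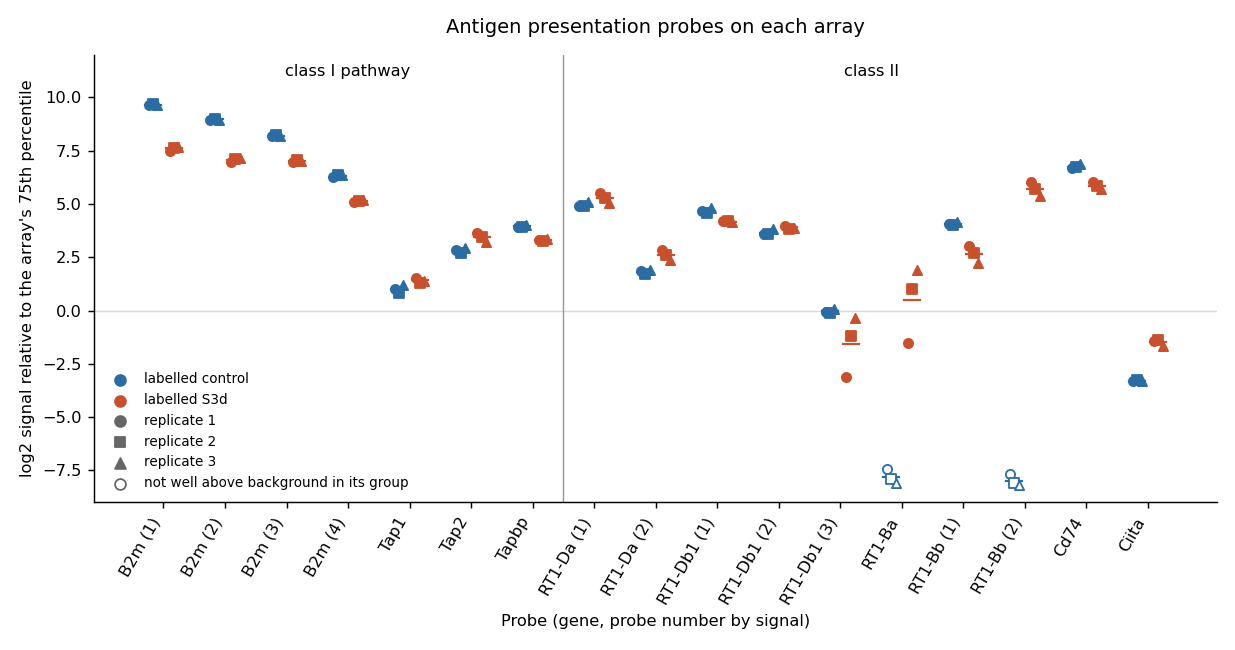
Level of each of the 17 member probes on the 6 arrays, in log2 signal relative to the 75th percentile of the array, with the group mean as a bar. Open symbols mark probes not well above background on any control array. The 4 B2m probes were lower on every array labelled S3d, whereas RT1-Ba and RT1-Bb (2) were near background on the control arrays and far above it on the S3d arrays.

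B2m encodes beta-2-microglobulin, the light chain of every classical class I molecule, and was measured by 4 probes. The brightest probe (A_44_P214040) read 9.63, 9.67 and 9.64 on control replicates 1 to 3 and 7.51, 7.64 and 7.68 on S3d replicates 1 to 3. Every S3d array was below every control array, by a log2 fold change of -2.04 (SE 0.07, adjusted p = 1.2e-05 by limma), a level 4.11-fold lower. The second probe (A_43_P11442) fell from 8.97 ± 0.03 to 7.07 ± 0.09 (SD, n = 3 each), by 1.90. The other two fell by 1.19 (A_44_P535612) and by 1.18 (A_44_P122632). All 4 probes were lower after scaling to the 75th percentile, with sizes 0.85 apart on the log2 scale.

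The size of the B2m difference, and for 2 probes its direction, depended on the scaling of the arrays. With quantile normalization the brightest probe gave -0.75, and the third gave -0.12 and was no longer called (adjusted p = 0.18 by limma). Before scaling, the brightest probe read 329000, 348000 and 343000 units on the control arrays and 265000, 310000 and 321000 on the S3d arrays. The third probe read 121000, 129000 and 124000 units against 184000, 205000 and 201000, and the fourth 31700, 35300 and 34900 against 49200, 55500 and 56600. Without scaling these last 2 were called higher (0.65 and 0.66), and the first 2 were not called (-0.19 and -0.05). Tested probes of high signal were lower on the S3d arrays in general. When the tested probes were divided into 10 bins by level, the median log2 fold change fell from 1.28 in the dimmest bin to -0.49 in the brightest, where 74.8% of probes had a negative value. Of the 17 member probes, 11 lay in that brightest bin.

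Tap1 and Tap2 form the transporter that carries peptides into the endoplasmic reticulum, and Tapbp encodes tapasin, which holds class I molecules at that transporter. Tap1 read 1.03, 0.84 and 1.18 on the control arrays and 1.53, 1.31 and 1.40 on the S3d arrays, 0.39 higher (SE 0.11, adjusted p = 0.018 by limma). Tap2 read 2.83, 2.69 and 2.92 against 3.63, 3.47 and 3.22, 0.62 higher (SE 0.12, adjusted p = 0.0046 by limma). Both subunits of the transporter were higher on every S3d array than on any control array. Tap1 was not called when the arrays were centred on their median (0.21) or without S3d replicate 1 (0.33, adjusted p = 0.051 by limma). Tapbp went the other way, from 3.94, 3.90 and 4.03 to 3.31, 3.26 and 3.34, a fall by 0.65 (SE 0.07, adjusted p = 0.00023 by limma). Over the scalings that centre the arrays its value ran from -0.84 to -0.25.

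RT1-Da and RT1-Db1 encode the alpha and beta chains of the rat class II molecule RT1.D, and their probes did not give 1 direction. For RT1-Da, the brighter probe (A_44_P991532) read 4.91, 4.91 and 5.09 on the control arrays and 5.52, 5.28 and 5.04 on the S3d arrays. It was the member probe whose groups overlapped, since S3d replicate 3 lay under control replicate 3, and its difference of 0.31 was not called (adjusted p = 0.083 by limma). It was called without S3d replicate 3 (0.43) and with quantile normalization (0.80). The dimmer probe (A_44_P367688) read 1.84, 1.72 and 1.88 against 2.86, 2.60 and 2.37 and was 0.80 higher (SE 0.13, adjusted p = 0.0023 by limma).

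The 3 RT1-Db1 probes differed in sign. The brightest (A_44_P130513) fell by 0.51 (4.65, 4.59 and 4.81 on the control arrays, 4.18, 4.19 and 4.15 on the S3d arrays, adjusted p = 0.0013 by limma), and was not called with quantile normalization (-0.11). The second (A_44_P130516) gave 0.24, with 3.58, 3.59 and 3.81 against 3.99, 3.83 and 3.89, and missed the threshold (adjusted p = 0.052 by limma), but passed it with quantile normalization (0.59) or without control replicate 3 (0.31). The third (A_44_P139882) was even on the control arrays, at -0.05, -0.10 and 0.08, and spread widely on the S3d arrays, at -3.14, -1.18 and -0.34. Its difference of -1.53 (SE 0.68) was not called (adjusted p = 0.086 by limma). Without S3d replicate 1 the value was -0.74 and without S3d replicate 3 it was -2.13, and both were called (adjusted p = 0.047 and 0.023 by limma), so single arrays set its size.

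RT1-Ba and RT1-Bb encode the alpha and beta chains of the other class II molecule, RT1.B. The RT1-Ba probe (A_44_P128248) was not well above background on any control array, where its processed signal was 2.36, 1.8 and 1.6 units, and read 512, 3170 and 5900 units on the S3d arrays. In scaled log2 levels this was -7.45, -7.89 and -8.07 against -1.51, 1.03 and 1.91. The groups were far apart, and the S3d arrays also differed widely among themselves, with an SD of 1.78 that was larger than that of 99.7% of tested probes. Taken against the lowest signal well above background on the control arrays, RT1-Ba was at least 93.8-fold higher on the S3d arrays. This bound was 187-fold without S3d replicate 1 and 57.1-fold without S3d replicate 3. No fitted fold change or p is given beside it, because the control value is background and the probe was tested through the S3d group alone.

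The 2 RT1-Bb probes gave opposite results. One (A_44_P552452) read 2.01, 1.56 and 1.5 units on the control arrays, not well above background on any of them, and 96700, 80300 and 65700 units on the S3d arrays. It was at least 3529-fold higher on the S3d arrays, and 3135 to 3944-fold without each array in turn. The other (A_44_P500803) was well above background on all 6 arrays and was lower on the S3d arrays. It read 4.07, 4.003 and 4.14 on the control arrays and 3.03, 2.72 and 2.24 on the S3d arrays, a fall by 1.41 (SE 0.20, adjusted p = 0.001 by limma). Probes of 1 gene thus lay on both sides of 0, while the fitted values were 0.85 apart among the 4 B2m probes, 0.49 between the RT1-Da probes and 1.77 among the RT1-Db1 probes. In all, 1744 tested probes were well above background on every S3d array and on no control array, and 137 the other way round. Probe sequences were not analysed here, so it is not known which exon or allele each class II probe matches. A difference on these probes may be one of match to the RNA as well as of level, which was not tested.

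**Figure D2:**
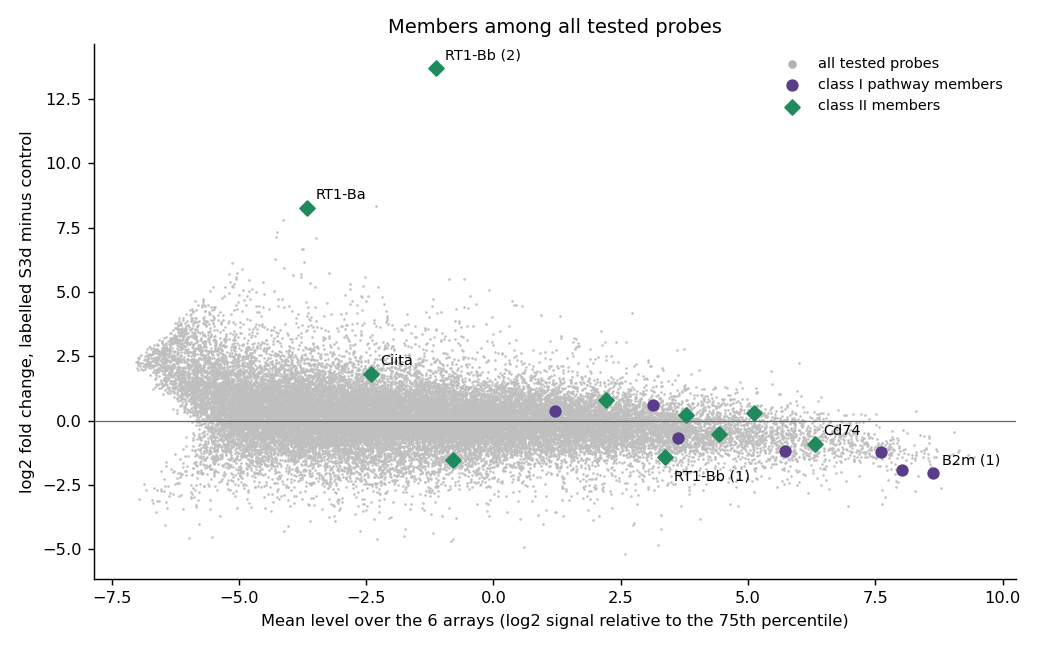
Log2 fold change (labelled S3d minus control) of each of the 31367 tested probes against its mean level over the 6 arrays, with the member probes marked. The heights of RT1-Ba and RT1-Bb (2) rest on control values at background and are no measure of size. RT1-Bb (1) lies at -1.41, and the B2m probes lie at the bright end, where most probes were below 0.

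Cd74 encodes the invariant chain, which fills the groove of class II molecules until they reach the lysosome. It read 6.67, 6.72 and 6.87 on the control arrays and 6.02, 5.86 and 5.71 on the S3d arrays, a fall by 0.89 (SE 0.10, adjusted p = 0.00045 by limma). The groups did not overlap, but with quantile normalization the value was -0.16 and was not called (adjusted p = 0.2 by limma). Ciita encodes the transactivator that class II promoters need. It read -3.33, -3.28 and -3.30 on the control arrays and -1.45, -1.36 and -1.66 on the S3d arrays, 1.81 higher (SE 0.09, adjusted p = 2.2e-05 by limma), or 3.51-fold. Ciita stayed called under all 4 scalings that centre the arrays, between 1.01 and 1.81.

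Over these 4 scalings (75th percentile, median, quantile, and normexp background correction followed by quantile normalization), every one of the 17 member probes kept its sign and 10 were called in all 4. These were 5 probes that were higher, of Tap2, RT1-Da, RT1-Ba, RT1-Bb and Ciita. The other 5 were lower, 3 of B2m and 1 each of Tapbp and RT1-Bb. Among the higher probes, those of RT1-Ba and RT1-Bb passed the filter through the S3d group alone, so they had to differ. Without any scaling the median over all tested probes was 1.93, against 0.08, and 98.1% of the called probes were higher against 53.3%. There, 7 of the 9 member probes with a negative value turned positive (0.32 to 1.34). Leaving out the scaling moves all probes by nearly the same amount, so their order stays as it was.

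**Figure D3:**
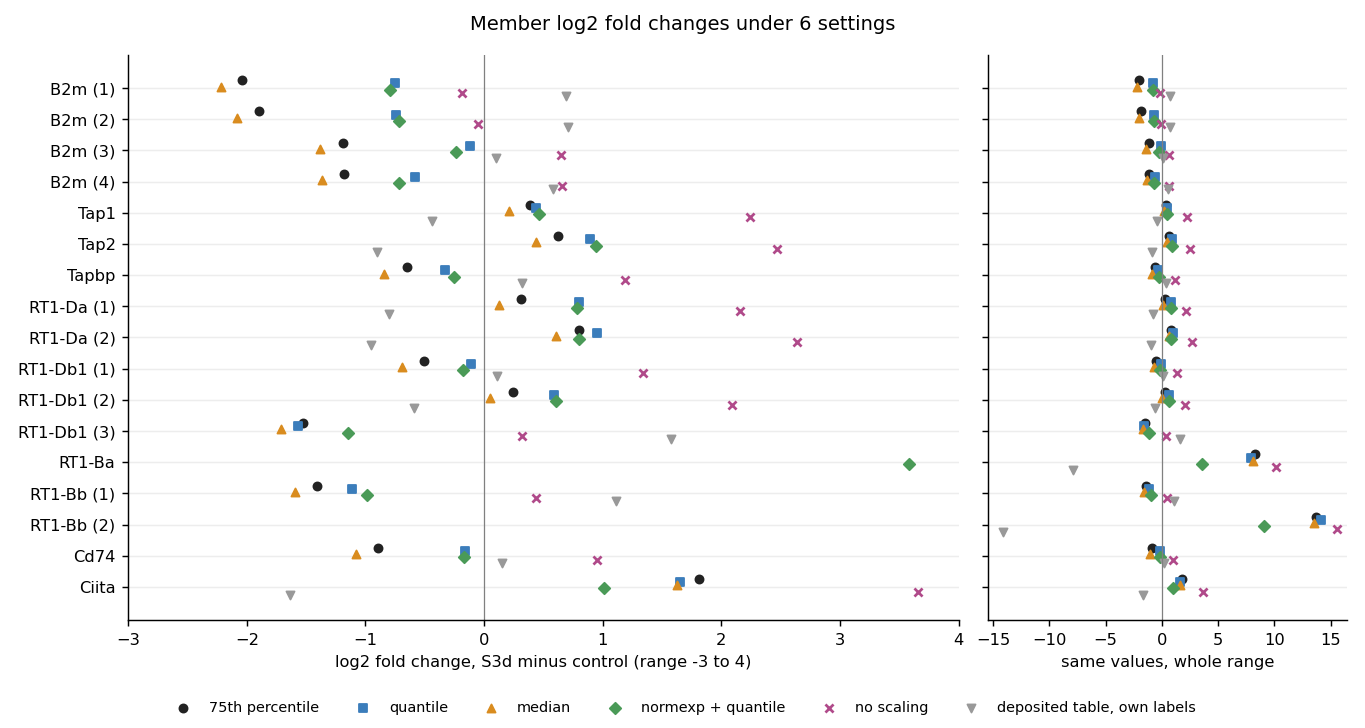
Log2 fold change (S3d minus control) of each member probe under 6 ways of handling the arrays, with the range from -3 to 4 on the left and the whole range on the right. The values of the deposited table, taken by its own labels, have the opposite sign for all 17 probes, and without scaling 7 negative values become positive.

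Arrays of the S3d group varied more than the control arrays for some members. An SD of at least 0.3 between S3d arrays was found for 4 of the 17 member probes, the third RT1-Db1 probe, RT1-Ba and both RT1-Bb probes, against 12.8% of tested probes. Between control arrays this held for 1 member probe, RT1-Ba, whose control values are background, against 13.4% of tested probes. All 4 probes with the wide S3d spread belong to class II chains. Of the 10 class II probes, 6 were highest on S3d replicate 1 and 7 were lowest on S3d replicate 3, whereas RT1-Ba and the third RT1-Db1 probe had the opposite order, lowest on S3d replicate 1 and highest on S3d replicate 3.

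**Figure D4:**
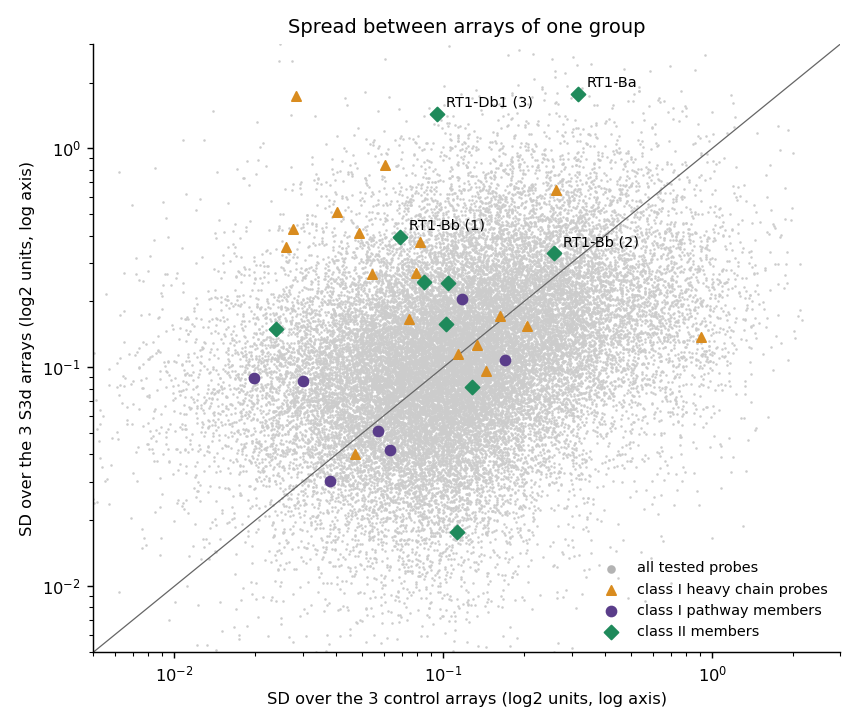
SD over the 3 S3d arrays against the SD over the 3 control arrays for each tested probe, on log axes in log2 units, drawn between 0.005 and 3, with the line of equal SD. RT1-Ba and RT1-Db1 (3) have S3d SDs of 1.78 and 1.43, and 8 of 18 class I heavy chain probes have an S3d SD of at least 0.3.

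Class I heavy chains, the partners of B2m, are a family of closely similar genes in the rat, so that a probe can take up RNA of more than 1 of them. Of 25 listed genes, 14 were tested by their brightest probe, and 5 were higher, 5 lower and 4 not called, with a median of -0.21 that turned to 0.49 with quantile normalization, and without scaling 13 were called higher. RT1-CE3 was 1.98 higher, and RT1-CE16 was 1.92 higher with 4.48, 4.45 and 4.54 on the control arrays and 6.37, 6.45 and 6.41 on the S3d arrays. RT1-A3 was at background on the control arrays and at least 14.9-fold higher on the S3d arrays. RT1-CE10 was lowest in value, at -2.38, and this rested in part on S3d replicate 1, with 0.72, 0.77 and 0.73 on the control arrays and -3.64, -0.64 and -0.65 on the S3d arrays. RT1-M3-1 and RT1-CE7 fell by 0.84 and 0.76. The others called were RT1-CE2 and RT1-S3, each 0.77 higher, and RT1-CE5 and RT1-N3, which fell by 0.57 and 0.50, while RT1-CE1, RT1-CE4, RT1-CE12 and RT1-A2 were not called. Second probes of these genes differed, being called higher for RT1-CE5 (2.98), RT1-CE4 (1.07) and RT1-A2 (1.14) and lower for RT1-S3 (-0.53). Of all 18 heavy chain probes tested, 14 were lowest on S3d replicate 1 within the S3d group, and 8 had an S3d SD of at least 0.3 against 1 with such a control SD.

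Of the genes that supply class I peptides and fold the molecule, all 9 tested were called lower (of 11 listed), against 34.5% of all tested probes. Their median was -0.80 against 0.08 over all tested probes. All but Tapbpl lay in the brightest of the 10 bins by level, where the median was -0.49 and 74.8% of probes had a negative value. With quantile normalization 6 of the 9 were called lower, whereas without scaling 7 were called higher. Psmb8, Psmb9 and Psmb10, the subunits that turn the proteasome into the immunoproteasome, fell by 0.80, 0.68 and 0.95. Psme1 and Psme2, which form the proteasome activator PA28, fell by 0.54 and 0.90, Psme1 turning to 0.07 and uncalled after normexp correction. The fall was larger for the chaperone Calr (by 1.87; 5.49, 5.49 and 5.20 against 3.64, 3.38 and 3.55) and for Tapbpl, a relative of tapasin (by 1.91). Canx, a chaperone of the heavy chain, fell by 0.21 but read 0.04 and was not called with quantile normalization. Tap1 and Tap2, in contrast, had positive values under every scaling. Of the class I-like genes, Hfe, which regulates iron uptake, was at least 2.38-fold higher from background. Cd1d1 (-0.10) and Fcgrt (0.13) were not called.

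In the list of class II editing and lysosomal genes, 4 of 9 were lower, 1 higher and 4 not called, while without scaling 7 were called higher. Lgmn, a lysosomal protease, fell by 1.91, and Ctss, the protease that cuts the invariant chain, fell by 0.65. RT1-DMa, a chain of the molecule that exchanges class II peptides, fell by 1.62 (4.33, 4.44 and 4.59 against 2.90, 2.83 and 2.79). Ifi30, the lysosomal thiol reductase, fell by 0.38 but was 0.33 higher and called with quantile normalization. Marchf1, a ligase that removes class II from the surface, was 0.28 higher but was not called higher with median centring. Marchf8, Ctsl, RT1-DOa and RT1-DOb were not called, although a second Marchf8 probe was called at -1.35. Among the 7 factors that bind class II promoters, which are known to act with Ciita, Rfxank fell by 1.05 and Creb1 fell by 0.43, and the other 5 (Rfx5, Rfxap, Nfya, Nfyb and Nfyc) were not called by their brightest probes, while without scaling all 7 were called higher. Further probes of Nfyb read 0.97 and 2.83 in fitted values, the latter from background on the control arrays, a second Nfyc probe was called higher (0.93), and those of Rfxank read -0.60 (called) and 0.00 (not called).

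Interferon gamma is the known inducer of Ciita and of the immunoproteasome. Ifng itself read -5.21, -5.30 and -5.47 on the control arrays and -5.39, -5.48 and -5.74 on the S3d arrays, a difference of -0.21 that was not called (adjusted p = 0.16 by limma). Of the 8 tested genes of the axis 5 were lower and 1 higher, while without scaling 6 were called higher and 1 lower. Socs1, the feedback inhibitor, fell by 2.19, the kinase Jak1 fell by 1.63 and the kinase Jak2 fell by 0.69, and the receptor chain Ifngr1 was 0.76 higher. A second Jak1 probe read 0.09 and was not called. Ifngr2 fell by 0.24 but was 0.26 higher with quantile normalization, and Irf1 was not called (-0.04). Of the costimulation genes, Cd86 was 2.25 higher (-4.21, -4.15 and -4.16 against -2.12, -1.88 and -1.77). Cd40 fell by 0.54 by its brightest probe and was 0.59 higher by its second. Both genes were called higher without scaling. Over all 52 tested genes of these lists, 9 were higher and 26 lower by the brightest probe (median -0.35), against 12 higher and 20 lower with quantile normalization and 45 higher and 1 lower without scaling. Of all 11482 tested named genes, 4138 were higher and 4298 lower. Of 15 list genes with several tested probes, 3 had probes called in both directions (RT1-CE5, RT1-S3 and Cd40).

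**Figure D5:**
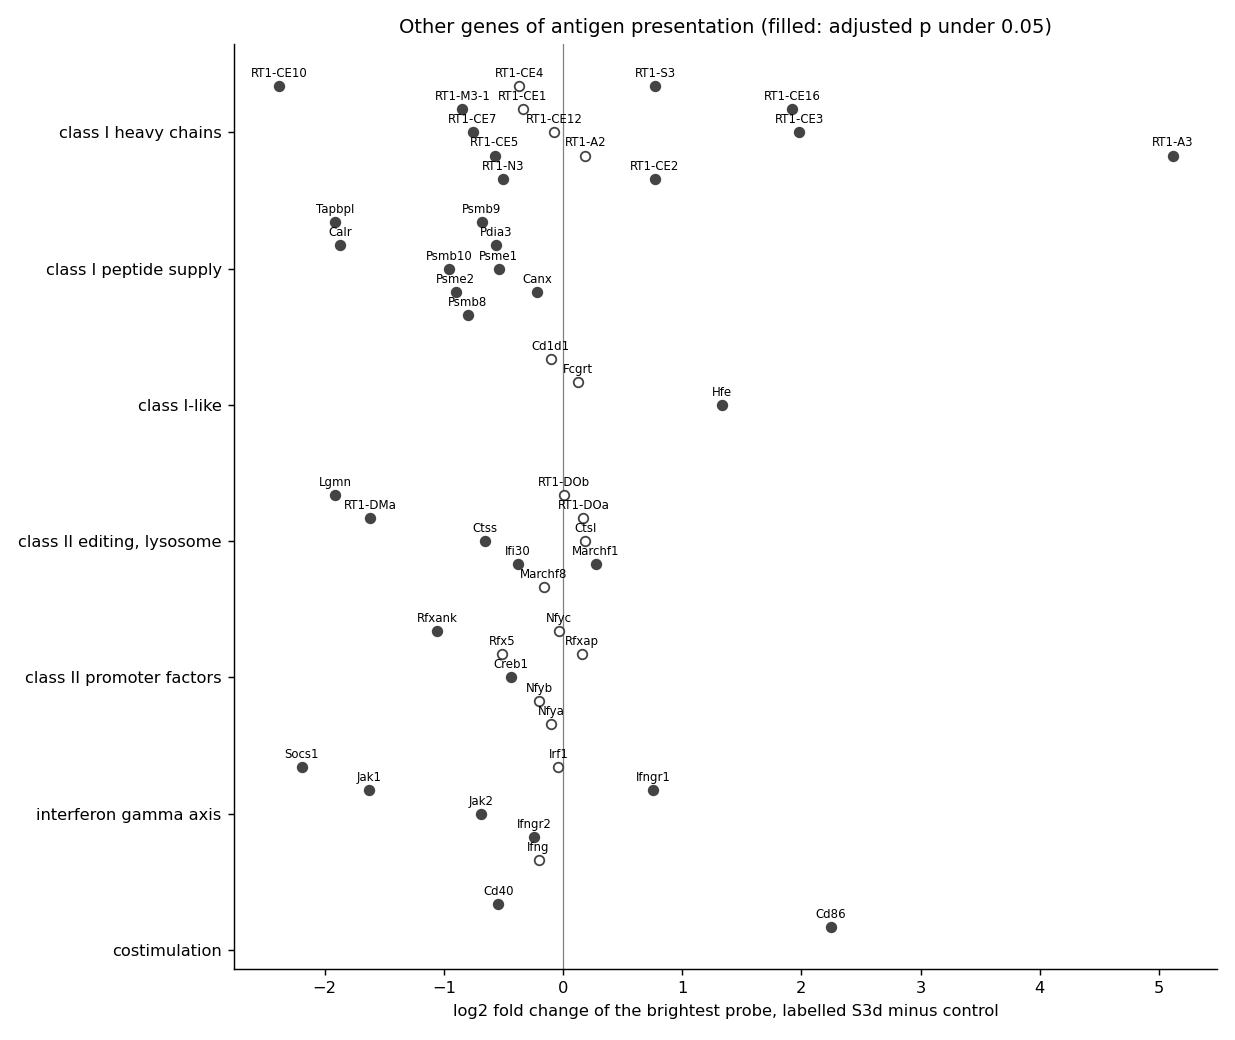
Log2 fold change (labelled S3d minus control, brightest probe, 75th percentile scaling) of the other antigen presentation genes, by list, filled where the adjusted p was under 0.05. All 9 peptide supply genes lie below 0 (7 of them were called higher without scaling), the heavy chains lie on both sides, and the fitted values of RT1-A3 and Hfe start from background on the control arrays.

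Since the samples were whole pieces of jejunum, fewer cells of a type and less RNA per cell cannot be told apart. Markers of leukocytes (B cells, macrophages, dendritic cells, T cells and leukocytes in general) were measured beside the members. Of 22 tested genes 11 were lower, 4 higher and 7 not called, while without scaling all but Ptprc were called higher. Their summed level was 76.7 to 89.9 times the 75th percentile on the control arrays and 55.8 to 60.2 times on the S3d arrays. The same sum over all named genes also fell, from 113000 to 116000 on the control arrays to 69200 to 75000 on the S3d arrays. Ptprc, the common leukocyte antigen, fell by 2.64 by its brightest probe, while its other probes were called at -0.53 and 0.69, and the B cell gene Cd79b fell by 1.13. Marco, a macrophage receptor, was not well above background on any array, and the dendritic cell markers Ccr7 and Xcr1 were above it on 1 control array each. The 4 higher were Ccr7, Xcr1, the T cell gene Cd2 (0.42, turning to -0.07 with quantile normalization) and the macrophage gene Csf1r (0.87). For Xcr1 the groups overlapped. Of the dendritic cell markers, 1 was called higher with quantile normalization or median centring, and 0 after normexp correction. The part of these cells in the values of Cd74 and the class II chains was not tested.

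Enterocyte markers, which check the labelled tissue, were well above background on all arrays. Of 9 tested, 6 were lower and 1 higher, with a summed level of 3160 to 3530 times the percentile on the control arrays and 1480 to 1540 on the S3d arrays, but with quantile normalization 5 were higher and 1 lower, and without scaling all 9 were higher. Of 5 smooth muscle markers 2 were lower, 1 was higher and 2 were not called, while without scaling all 5 were higher. The part of epithelial content in the B2m and peptide supply values was not tested.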

How the data were processed

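Scanner files deposited by the authors come from Agilent Feature Extraction 10.7.3.1 (10.7 in the submitters' processing notes). The intensity values that the authors deposited are the processed signal, which the program corrected for background but did not scale between arrays, and the median spot and local background signal. They also deposited 1 table of log2 values, quantile-normalized, used by its own labels as an alternative. The build was not given in the sources used here.

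Each array's processed signal was divided by its 75th percentile and taken to log2. The percentile was taken over all spots other than control spots, outlier spots included. Outlier spots were left out when repeated spots were averaged. A probe was tested if the scanner called it well above background on every array of one group or the other. The test was limma 3.58.1 under R 4.3.3 (eBayes after lmFit, no block), with Benjamini-Hochberg adjustment over all 31367 of them. A call is an adjusted p under 0.05. A bound ("at least") sets the mean of the bright group against the lowest signal well above background on the dim arrays. Bounds were computed under 75th percentile scaling only. Fitted log2 values after normexp correction were smaller, at 3.58 for RT1-Ba (bound 6.55) and 9.04 for the RT1-Bb probe A_44_P552452 (bound 11.78). Summed levels add linear scaled signals. On simulated data (31137 probes, 200 changed) 66% of log2 changes of 1 and 90% of changes of 2 were recovered, with 8 false calls. That changed share was far below the 73.9% of tested probes called here, so these rates need not hold for the data.

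Probes were named through RefSeq (GRCr8), 17512 of the 20904 with a RefSeq accession; its coordinates apply to the promoters only. All probes of the members were named and, of each pathway list, the 3 largest called rises and falls by the brightest probe and genes behind counts of 5 or fewer. Further genes (Psmb8, Psmb9, Psmb10, Psme1, Psme2, Canx and the cell type markers) were chosen after their values were seen. Some genes that enter the list counts are not reported here by name or drawn. The members and lists were chosen with earlier results of these data known. Normexp used the median signal with an offset of 50, as no mean signal column was used. The number of arrays limits the precision. Python 3.11.15, numpy 2.4.6, pandas 2.3.3 and matplotlib 3.10.9 were used for tables and plots.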

Additional observations from a re-analysis of the deposited data

How the results depend on the processing

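The 14 called member probes numbered 13 to 16 under the other scalings, filters and tests, and 14 to 16 without each array in turn (21445 to 22798 probes of the whole array, 31 to 34 pathway genes and 20 to 23 markers, against 23186, 35 and 25). Taking the mean over the probes of a gene left 9 called of 10 genes, with RT1-Bb reversed to 6.14 and RT1-Db1 at -0.60 not called. The RT1-Bb mean includes the probe at background on the control arrays, so it is no measure of size. Without scaling between arrays the values reversed for the B2m probes A_44_P535612 (0.65) and A_44_P122632 (0.66), Tapbp (1.19), the RT1-Db1 probes A_44_P130513 (1.34) and A_44_P139882 (0.32), the RT1-Bb probe A_44_P500803 (0.44) and Cd74 (0.95). The deposited normalized table, by its own labels, reversed all 17 probes. It gave 0.69, 0.71, 0.10 and 0.58 for the B2m probes A_44_P214040, A_43_P11442, A_44_P535612 and A_44_P122632, -0.44 for Tap1, -0.90 for Tap2, 0.32 for Tapbp, -0.80 and -0.95 for the RT1-Da probes A_44_P991532 and A_44_P367688, 0.11, -0.59 and 1.58 for the RT1-Db1 probes A_44_P130513, A_44_P130516 and A_44_P139882, -7.91 for RT1-Ba, 1.11 and -14.15 for the RT1-Bb probes A_44_P500803 and A_44_P552452, 0.15 for Cd74 and -1.64 for Ciita. Median centring gave a median of -0.10 over all tested probes. With the replicate number as a block, 22212 probes of the whole array, 14 member probes, 33 pathway genes and 23 markers were called, and no member call changed. Same-numbered arrays of the groups did not deviate together (r 0.02, 0.02 and -0.05), so the numbers share only a name. A slide block could not be fitted, as each slide carries a single group.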
